A study of Mus musculus with 3 samples.

Results

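The genes described here are the folding machinery of the endoplasmic reticulum (ER) and the stress response that watches over it. They are 33 genes of the 55536 mouse gene IDs quantified, taken by symbol from a list that groups them by function: 10 chaperones and cochaperones, 5 genes of disulfide isomerases and related folding factors, 7 genes of ER-associated degradation (ERAD), 3 stress sensors, 3 transcription factors, and 5 genes known as targets of the factors ATF4 and CHOP. The rule reads gene symbols and no measured value, but the list was chosen with earlier results of these data known. The data are polyadenylated RNA from macrophages that were grown out of C57BL/6J mouse bone marrow and held for 180 min with 100 ng/mL of a stimulus, in 3 libraries labelled as biological replicates of a single group. The labels call the stimulus lipid A, the Toll-like receptor 4 agonist of bacterial lipopolysaccharide, in one field, and lipoprotein A, a protein, in others. All libraries carry 1 donor identifier, so the spread between them may be partly technical, and age and sex are given as not collected. No unstimulated sample was analysed here, so a level below is a level in stimulated cells and never a response to the stimulus.

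Proteins bound for the cell surface, the endosomes or secretion fold in the ER, where chaperones hold them, disulfide isomerases set their cysteine bonds, and ERAD sends those that fail back to the cytosol for destruction. Unfolded protein is read by 3 membrane sensors, IRE1 (gene Ern1), ATF6 and PERK (gene Eif2ak3). IRE1 cuts a short intron out of the Xbp1 mRNA so that an active transcription factor is made, ATF6 is itself cut into a transcription factor, and PERK phosphorylates eIF2alpha, which slows translation and lets ATF4 and then CHOP (gene Ddit3) be made. In macrophages the IRE1 and XBP1 branch is known to be engaged by Toll-like receptors and to support cytokine production.

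Each library held between 24450338 and 60595742 expected counts of mouse genes, and 10026 genes reached 1 TPM (a length-scaled share of all transcripts in a library) in every replicate, which is called detected below. Of 12 macrophage markers, 11 were detected, with Lyz2 and Cd68 at 18063 and 2722 TPM on average, and the one below 1 TPM was the scavenger receptor gene Cd163. Libraries differed in transcripts of other cells: the summed level of 12 neutrophil markers was 93.8, 730 and 55.9 TPM in replicates 1, 2 and 3, and that of 8 stromal markers 0.51, 8.22 and 1.06 TPM. Of the neutrophil markers 4 were detected and Ly6g had 0 counts in every library. In bulk RNA, fewer cells of a type and less RNA per cell cannot be told apart. Antibody-secreting cells hold much folding machinery. Of 12 plasma and B cell markers 5 were detected, and the 12 had a summed level of 30.2, 31.3 and 23.8 TPM. Those detected were Prdm1, Ighm, Sdc1, Igkc and Cd79b, with means of 11.3, 8.71, 3.79, 2.45 and 1.55 TPM. Among the others, Jchain and Mzb1 stood at or under 0.51 TPM in every library. Whether such cells were present was not tested. An rRNA gene, CT010467.1, took 8.40% of the counts of replicate 3 and 1.89% of those of replicate 2, and since TPM adds up to a fixed total it lowers the TPM of all other genes in replicate 3.

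Several of these genes share sequence elements in their promoters, printed here because the elements are the textbook binding sites through which ATF6 and XBP1 act. RefSeq promoter windows (build GRCm38.p6, 250 bases before the start base, which is position 0, and 50 from it onwards) were at hand for 29 of the 33 genes, all but Hyou1, Manf, Derl1 and Atf6. The ER stress element (ERSE) was searched as CCAAT, 9 further bases and CCACG on both strands. It stood in 9 of the 29 windows (31.0%), against 37 of all 27025 genes with windows (0.137%). The list is of genes known for ER folding and this stress response. Neither this contrast nor those of the motifs below is therefore an independent test. In the lines below the capitals mark the element, read in the direction of the gene, so that CGTGG before ATTGG is the element on the opposite strand.
Hspa5: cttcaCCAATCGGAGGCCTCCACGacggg
Hsp90b1: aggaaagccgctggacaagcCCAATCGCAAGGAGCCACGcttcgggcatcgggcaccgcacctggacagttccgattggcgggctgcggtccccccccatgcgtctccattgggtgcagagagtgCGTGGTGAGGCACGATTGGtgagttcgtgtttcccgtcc
Calr: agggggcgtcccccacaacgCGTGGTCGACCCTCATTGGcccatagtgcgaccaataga
Canx: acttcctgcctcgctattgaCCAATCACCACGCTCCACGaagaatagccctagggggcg
Pdia6: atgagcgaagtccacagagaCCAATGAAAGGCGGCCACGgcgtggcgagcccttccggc
Creld2: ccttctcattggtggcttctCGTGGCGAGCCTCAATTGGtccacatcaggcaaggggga
Derl3: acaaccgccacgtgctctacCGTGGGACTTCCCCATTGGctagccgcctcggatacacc
The stretches lie at chr2:34772020-34772048 for Hspa5, chr10:86705513-86705676 on the minus strand for Hsp90b1, chr8:84847055-84847113 on the minus strand for Calr and chr11:50325780-50325838 on the minus strand for Canx. Those of Pdia6, Creld2 and Derl3 are on the plus strand, as is that of Hspa5, at chr12:17266471-17266529, chr15:88819500-88819558 and chr10:75893222-75893280. Hsp90b1 held the element on both strands, at positions -212 to -194 and -107 to -89. Dnajc3 and Syvn1 completed the 9, and on the strand of the gene alone the count was 6. The Hspa5 stretch overlaps an annotated exon, that of the transcript Hspa5-201.

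A second form, ERSE-II, was searched as ATTGG, 1 further base and CCACG. Among the 29 it stood in Dnajb11 and Herpud1, against 12 of all genes (0.0444%). Herpud1 also held an ATF4-type match (TGATGNAAN, at positions -113 to -105), and its ERSE-II, at chr8:94386357-94386407 on the plus strand, is shown with its surroundings.
Herpud1: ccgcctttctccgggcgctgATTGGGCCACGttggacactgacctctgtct
The ATF4-type letters were found in 4 of the 29 windows (13.8%), those of Asns, Chac1, Herpud1 and Trib3, against 4.5% of all genes, and in 1 window, that of Asns, on the strand of the gene alone. TGACGTGG, a site bound by XBP1 and ATF6 whose last letters are those of CCACG on the other strand, was in 0 of 29 windows and in 0.714% of all genes. No match of one motif overlapped that of another in these windows. A match is a string of letters and was not tested as a site, and a window without one says nothing of the factor.

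**Figure D1:**
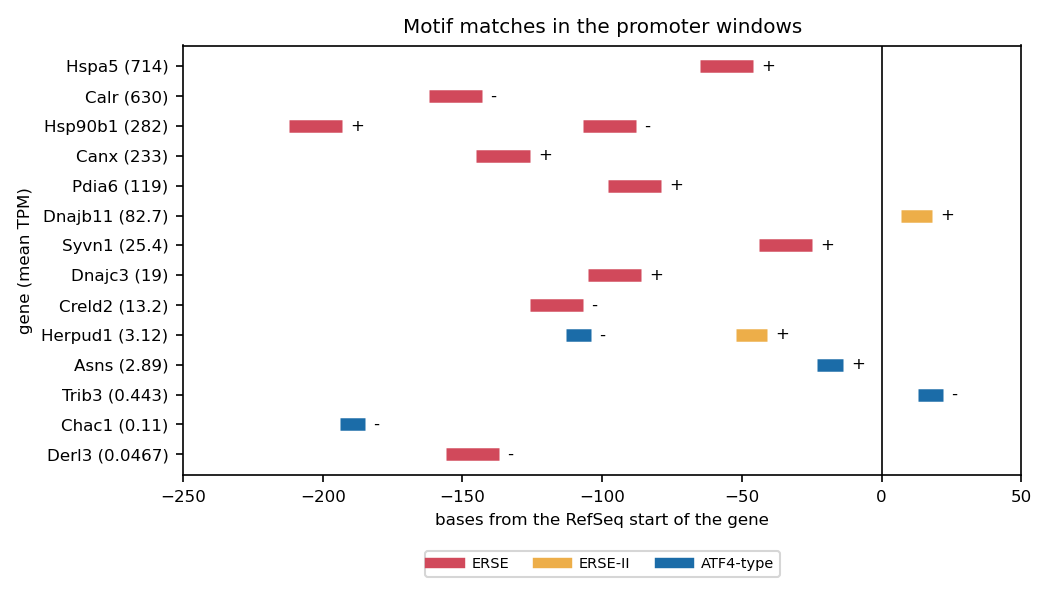
Position of each motif match in the promoter windows of the 14 genes that hold one (x axis: bases from the RefSeq start; y axis: gene with its mean TPM of 3 libraries, highest at the top; signs: strand relative to the gene). ERSE matches are spread from Hspa5 at 714 TPM down to Derl3 at 0.0467 TPM, and the 4 genes with ATF4-type matches stand at or under 3.12 TPM.

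Genes with the element were found at high and at low levels. The 11 genes with either form of the ER stress element ranged from 0.0467 to 714 TPM, with a median of 82.7 TPM. Those 18 with a window and neither form ranged from 0.11 to 233 TPM, with a median of 50.7 TPM. Derl3, whose window holds a complete ERSE, had 1, 0 and 1 counts in replicates 1, 2 and 3.

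Of the 33 genes, 28 were detected, 24 of those lay above the median detected gene, and 8 reached 100 TPM in all libraries. The median over all 33 was 48.0 ± 1.70 TPM (SD, n = 3), against 14.6 ± 0.535 TPM for the median detected gene. On the scale of log2(TPM + 0.1) the list stood 1.71 ± 0.03 above that gene. Chaperones and isomerases held most of the summed level, 82.3% of the TPM of the 33 genes, and Hspa5 and Calr alone held 40.4%. Degradation and transcription factor genes were intermediate, with medians of 48.3 ± 2.81 and 58.0 ± 1.75 TPM, and the 3 sensors had a median of 7.24 ± 0.921 TPM.

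**Figure D2:**
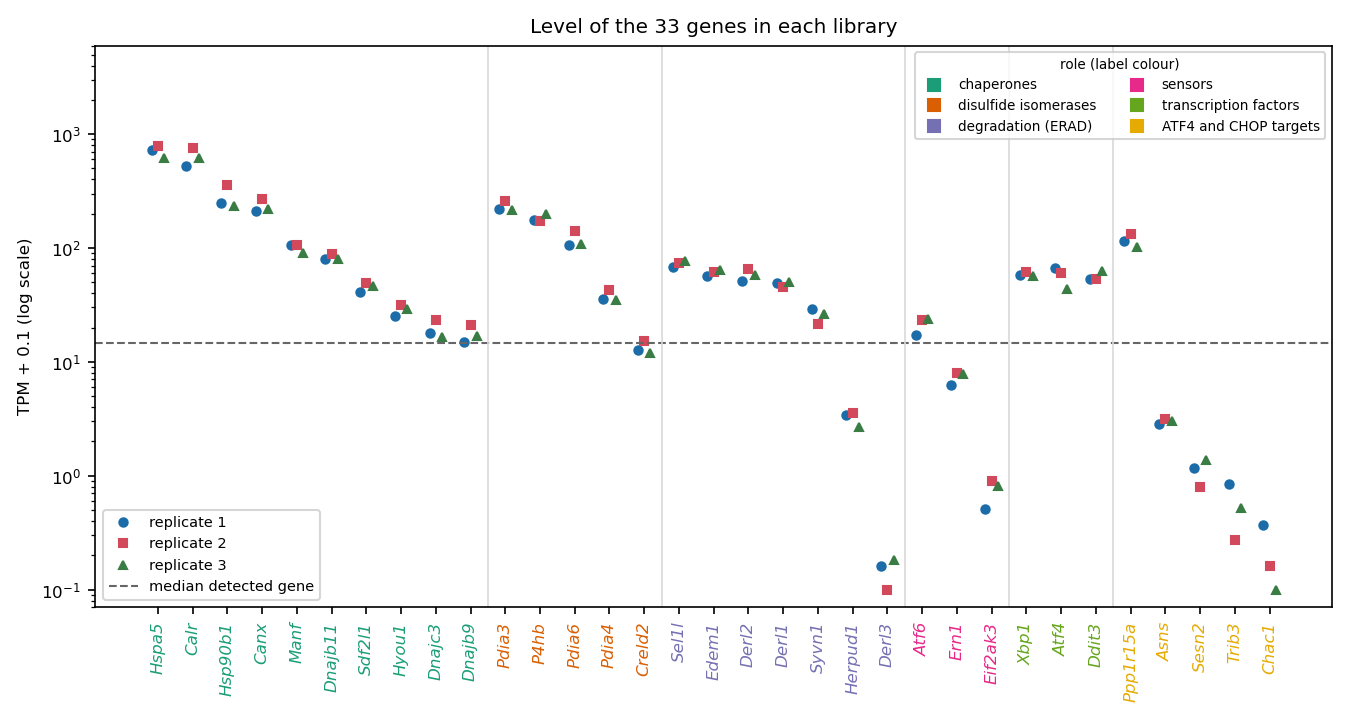
TPM of the 33 genes in each of the 3 libraries (y axis: TPM + 0.1, log scale; points: libraries; label colour: role; dashed line: the median detected gene at 14.6 TPM). Chaperones and isomerases fill the top, from 714 TPM for Hspa5, while Eif2ak3, Derl3, Sesn2, Trib3 and Chac1 lie near or below 1 TPM.

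All 10 chaperone genes were detected, with a median level of 91.7 ± 6.19 TPM. Hspa5 (ENSMUSG00000026864.13, chromosome 2, 34771970 to 34777547 on mm10), which encodes BiP, the Hsp70 of the ER that also keeps the stress sensors inactive, was highest of all 33 genes at 729, 790 and 623 TPM in replicates 1, 2 and 3. It ranked 198 among the detected genes. Calr, the gene of the lectin chaperone calreticulin, stood at 630 ± 114 TPM (SD, n = 3), and Canx, that of its membrane-bound relative calnexin, at 233 ± 30.4 TPM. Within each library Calr exceeded Canx, by 1.43 ± 0.10 on the log2 scale, and by 0.42 on counts without length scaling. Hsp90b1 encodes GRP94, the Hsp90 of the ER that macrophages need for Toll-like receptors and integrins, and it stood at 282 ± 68.9 TPM, below Hspa5 by a log2 ratio of 1.36 ± 0.21.

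Helpers of BiP were lower than BiP itself. Manf, a gene of a secreted ER stress factor that binds BiP, stood at 101 ± 8.55 TPM. The J-domain cochaperones, which bring BiP its clients, were unequal: Dnajb11 stood at 82.7 ± 5.37 TPM, Dnajc3 at 19.0 ± 3.52 TPM and Dnajb9 at 17.5 ± 3.13 TPM. Dnajb11 exceeded Dnajb9 in every library, by 2.25 ± 0.17 (log2), while the log2 ratio of Dnajc3 to Dnajb9 was 0.12 ± 0.16, smaller than its spread and of both signs; on CPM without length scaling it was 1.29 ± 0.12. Sdf2l1, a partner of the J-domain proteins, stood at 45.2 ± 3.97 TPM. Hyou1, the gene of the large Hsp70 relative that exchanges nucleotide on BiP, had 28.5 ± 3.17 TPM, and Hspa5 exceeded it 25.0-fold (log2 ratio 4.64 ± 0.21). Dnajb9 was the lowest chaperone, at 14.7, 20.9 and 16.9 TPM in replicates 1, 2 and 3, around the median detected gene.

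The 5 isomerase and folding factor genes were all detected, and 3 of them exceeded 100 TPM in every library. Pdia3 encodes ERp57, the isomerase that works with calreticulin and calnexin and in the loading of MHC class I, and it was highest at 221, 261 and 217 TPM in replicates 1, 2 and 3. P4hb, the gene of protein disulfide isomerase itself, stood at 182 ± 14.2 TPM and Pdia6 at 119 ± 19.7 TPM. P4hb lay above Pdia6 in every library, by 0.62 ± 0.30 (log2). Pdia4, a further isomerase gene, had 37.6 ± 4.23 TPM, and the ratio of Pdia3 to it had the smallest SD of the 24 ratios computed, 2.63 ± 0.01 (log2; 6.19-fold). Creld2, the gene of a folding factor raised in ER stress, was lowest at 12.5, 15.2 and 11.9 TPM, below Manf by a log2 ratio of 2.92 ± 0.13.

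Among the 7 degradation genes, 6 were detected and none reached 100 TPM in every library. Sel1l, the adaptor of the HRD1 ubiquitin ligase, was highest at 68.3, 74.0 and 76.7 TPM in replicates 1, 2 and 3, and Syvn1, the gene of HRD1 itself, stood at 25.4 ± 3.80 TPM. The log2 ratio of Sel1l to Syvn1 was 1.53 ± 0.28. Edem1, which picks glycoproteins for degradation, had 60.2 ± 3.67 TPM. Derl2 and Derl1, genes of the derlins through which proteins leave the ER, had 58.2 ± 7.45 and 48.3 ± 2.81 TPM, and Derl1 was below Derl2 in every library by a mean log2 of -0.26 ± 0.25, which turned to 1.19 on counts without length scaling. Derl3, a derlin gene known from secretory tissue, was listed at 0.06, 0 and 0.08 TPM. These are 1, 0 and 1 counts. A count of 0, as in replicate 2, allows up to 3 counts in a library, and a count of 1 allows more. Herpud1 (ENSMUSG00000031770.16, chromosome 8, 94386438 to 94395377) encodes a scaffold of the HRD1 complex that is a classic target of the stress response, and it stood at 3.12 ± 0.477 TPM, ranking 8666 of 10026 detected genes. Relative to Edem1 its log2 ratio was -4.24 ± 0.29, an 18.9-fold difference in the same direction in all 3 libraries.

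Sensor genes were low and unequal. Atf6 was highest at 17.0, 23.1 and 23.6 TPM in replicates 1, 2 and 3. Ern1 stood at 7.24 ± 0.921 TPM, below Atf6 by a log2 ratio of -1.53 ± 0.09. Eif2ak3 (ENSMUSG00000031668.14, chromosome 6, 70844515 to 70905245) was lowest at 0.41, 0.80 and 0.71 TPM, with 28, 79 and 106 counts, and did not reach 1 TPM in any library. Ern1 exceeded Eif2ak3 10.2-fold (log2 ratio 3.34 ± 0.25). The size of this ratio depended on the scale. It was 2.33 with 1 TPM added in place of 0.1, and 4.05 on CPM without length scaling. Ern2, the IRE1 paralogue of mucosal epithelium, had 0 counts in every library, where 0 allows up to 1.23e-05% of the counts of replicate 1.

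All 3 transcription factor genes were detected, at mean TPM values close to each other. Xbp1 stood at 58.3, 61.4 and 56.2 TPM in replicates 1, 2 and 3, Atf4 at 56.5 ± 11.9 TPM, and Ddit3 at 52.8, 52.8 and 63.2 TPM. Per unit of length, none of these differed from its neighbour beyond the spread: the log2 ratio of Xbp1 to Atf4 was 0.07 ± 0.28 and that of Atf4 to Ddit3 -0.01 ± 0.47. On CPM without length scaling Atf4 exceeded Ddit3 by 1.29 ± 0.45 (log2), and without replicate 3 the length-scaled ratio was 0.25. Atf4 carried most of that spread, with 66.5 TPM in replicate 1 and 43.4 TPM in replicate 3. Xbp1 exceeded Atf6 by 1.48 ± 0.27 (log2) per unit of length, and on counts without length scaling it lay below, at -0.47. The symbol Ddit3 belongs to 2 gene IDs that share bases, and the other ID was listed at 0.

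The Xbp1 sequence at the IRE1 site is shown because it decides what the deposited shares can tell of the splicing of this mRNA. The capitals mark the 26 bases removed by IRE1, at chr11:5524279-5524304 on the plus strand of mm10, in exon 4 of the transcript Xbp1-201 and inside its coding sequence.
Xbp1: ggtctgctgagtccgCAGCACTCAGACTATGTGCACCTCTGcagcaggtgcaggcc
With these bases the reading frame of Xbp1-201 runs for 267 codons before a stop, and without them for 371. The bases are in 3 of the 4 annotated transcripts, and 0 annotated transcripts have the flanks joined without them. The deposited shares therefore do not separate the cut from the uncut mRNA. Xbp1-201 took 92.7%, 96.7% and 96.0% of the TPM of the gene in replicates 1, 2 and 3, a mean of 95.1%, and 92.2% in the second quantification, which the authors derived from reads and an index.

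The 5 targets of ATF4 and CHOP were divided. Ppp1r15a (ENSMUSG00000040435.12, chromosome 7, 45522916 to 45526268) encodes GADD34, the subunit that leads a phosphatase to eIF2alpha and so ends the translation block, and it stood at 115, 132 and 101 TPM in replicates 1, 2 and 3. It exceeded Ddit3 in every library, by 1.04 ± 0.33 (log2), whereas its log2 ratio to Ppp1r15b, the gene of the constitutive partner, was 0.19 ± 0.22 and of both signs. On CPM without length scaling Ppp1r15a lay below Ppp1r15b, at -1.08 ± 0.25. Asns, the gene of asparagine synthetase, was detected at 2.89 ± 0.161 TPM. Sesn2, the gene of the stress protein sestrin, had 1.07, 0.69 and 1.26 TPM, on both sides of the 1 TPM limit. Trib3, the gene of a pseudokinase that CHOP is known to raise, had 0.74, 0.17 and 0.42 TPM. Chac1, a gene of glutathione breakdown, was lowest at 0.27, 0.06 and 0 TPM, which are 6, 2 and 0 counts. The group median lay 3.77 ± 0.46 (log2) below the median detected gene, a level of -3.77, and turned to 0.33 when only Ppp1r15a and Asns, the detected members, were kept.

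Ordered by mean TPM, the 33 genes form 32 neighbouring pairs, of which 16 did not differ beyond the SD of their log2 ratio over libraries. Hspa5 and Calr at the top were such a pair (0.19 ± 0.25). A plateau of Edem1, Xbp1, Derl2, Atf4 and Ddit3, between 60.2 and 56.3 TPM, had no neighbours that differed beyond their spread. Clear steps stood between Calr and Hsp90b1 (1.17 ± 0.19), between Ern1 and Herpud1 (1.19 ± 0.33) and between Asns and Sesn2 (1.47 ± 0.46).

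Ratios were computed for 24 pairs, and 21 of them had more than 3 counts of both genes in every library. In 17 of the 21 all libraries lay on the same side and the mean exceeded its SD, and in 14 the mean passed 2-fold. The exact permutation test used, two-sided with the signs of the replicates flipped, cannot go below p = 0.25 (0.3 adjusted over the 24 pairs), so no pair can pass 0.05 by this test. Levels of different genes are comparable only per unit of length: without length scaling, 13 of the 21 ratios moved by over 1.5 times. For Derl2 and Derl3, Ern1 and Ern2, and Trib3 and Chac1, where a gene had 3 counts or fewer in some library, no ratio is given.

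**Figure D3:**
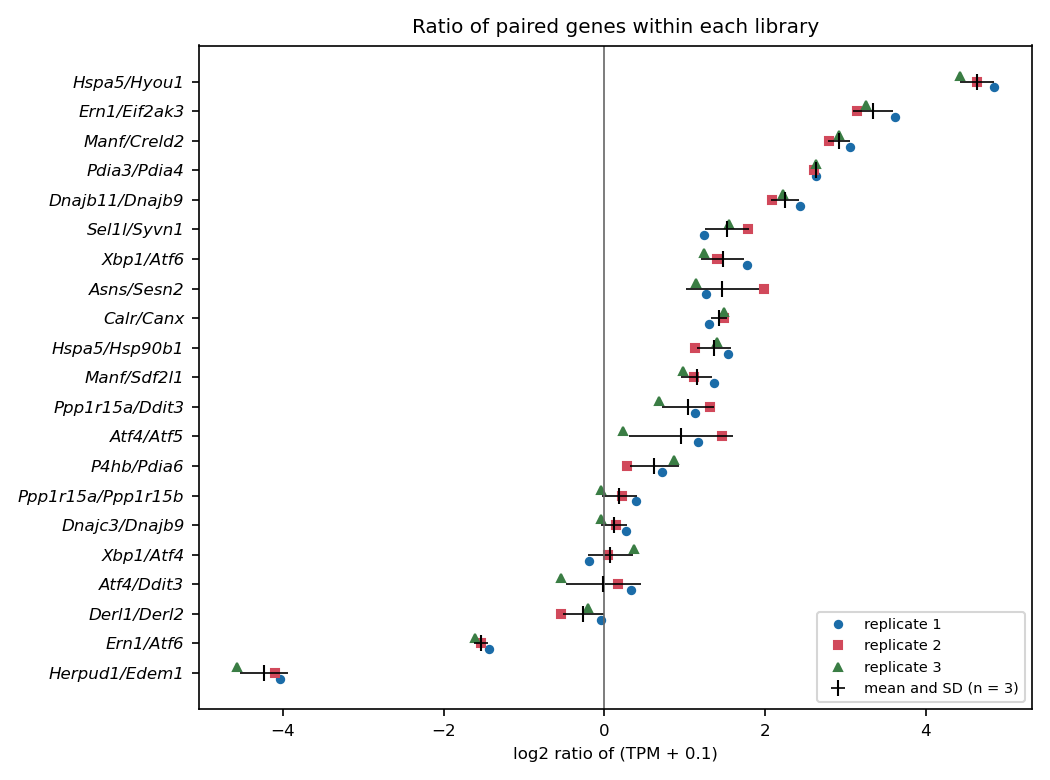
Log2 ratio of TPM + 0.1 for the 21 pairs with more than 3 counts of both genes in every library (points: libraries; bar: mean and SD, n = 3). Hspa5 over Hyou1 is at the top at 4.64 and Herpud1 over Edem1 at the bottom at -4.24, and 4 pairs straddle 0.

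The other genes of the pathway gave the setting. Of 18 genes of the glycoprotein folding cycle 17 were detected, led by the prolyl isomerase gene Ppib at 284 ± 18.9 TPM and by Erp29 at 136 ± 10.6 TPM, and Uggt2, of a folding sensor for glycoproteins, was lowest at 0.26, 1.17 and 0.51 TPM. Translocation and glycosylation genes stood closest to the chaperones, with 25 of 25 detected and a median of 69.3 ± 2.45 TPM. Their highest were Spcs1, of the signal peptidase, at 255 ± 5.42 TPM and Ssr3, of the translocon-associated complex, at 176 ± 22.2 TPM, and the lowest was Srprb, of the signal recognition particle receptor, at 13.2 ± 2.67 TPM. All 20 further degradation genes were detected, from Vcp, the ATPase that pulls proteins from the membrane, at 152 ± 14.8 TPM, and Selenok at 144 ± 13.3 TPM, to Fam8a1 at 7.36 ± 1.16 TPM. Herpud1 stood below all 20 of them.

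Further isomerases and oxidases were detected in 12 of 14 cases, with Fkbp2 at 102 ± 4.03 TPM and Prdx4 at 67.6 ± 6.28 TPM highest and Fkbp11 lowest at 0.26, 0.48 and 0.54 TPM. Sensors and processing factors were detected in 11 of 13 cases, led by Tmbim6, the Bax inhibitor gene, at 575 ± 53.6 TPM and the cell death gene Bax at 113 ± 26.2 TPM. The eIF2alpha group held all 7 of its genes: the interferon-induced kinase gene Eif2ak2, which encodes PKR, stood at 156 ± 23.0 TPM and the phosphatase gene Ppp1cc at 127 ± 18.5 TPM, and Eif2ak4, of the amino acid sensor GCN2, was lowest at 2.40 ± 0.266 TPM. Among 25 further ATF4 targets 17 were detected, with the transporter gene Slc3a2 at 366 ± 60.5 TPM and the stress gene Nupr1 at 358 ± 51.0 TPM at the top and Slc6a9 at 0.04, 0 and 0.04 TPM at the bottom. The median of that group was 8.40 ± 1.16 TPM, below the median detected gene. Atf5, a relative of Atf4 with similar control, stood at 29.4 ± 7.76 TPM, and the log2 ratio of Atf4 to it was 0.95 ± 0.65. Kdelr1, of a receptor that returns chaperones to the ER, stood at 74.0 ± 9.64 TPM, Kdelr2 at 16.8 ± 0.874 TPM and Kdelr3 at 0.16, 0.04 and 0.09 TPM.

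Replicates were compared on CPM, counts scaled to library size and normalized. The default filter on low counts kept 11611 genes and 30 of the 33, all but Derl3, Trib3 and Chac1. A chi-square test of equal rates, adjusted over all tested genes, called 24 of the 30 at 0.05, against 77.5% of all tested genes. Without replicate 2 the count was 14 of 31, against 6090 of all 12037 tested genes. Such calls compare libraries with counting noise and not conditions. Dnajb11, Sdf2l1, Manf, Herpud1, Xbp1 and Asns were not called. Past 2-fold between the highest and the lowest library were 0 of 30, against 12.8% of all tested genes and 6.18% of the 5985 with a mean of at least 10 TPM. Past 1.5-fold were 3, Atf4, Eif2ak3 and Sesn2, against 37.4%. The median ratio of the highest to the lowest library was 1.20 for the 30 genes and 1.38 for all tested genes, and among genes with a mean of at least 10 TPM it was 1.20 for 25 of the 33 and 1.31 for all.

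Replicate 2 was the highest library for 17 of the 30 genes, against 37.8% of all tested genes. Replicate 1 was highest for 4 (31.6% of all) and replicate 3 for 9 (30.6%). The second quantification had replicate 2 highest for 14 of 30 genes, against 37.5% of all, and replicate 3 for 12. In deposited TPM replicate 2 was highest for 21 of 30, against 44.8%. By role, on CPM of the first quantification, 12 of the 15 chaperone and isomerase genes were highest in replicate 2, and 5 of the 15 other genes. The deviation of replicate 2 from the mean of the other libraries had a median of 0.15 (log2) for chaperones and 0.18 for isomerases, against 0.01 for all tested genes. Hsp90b1 showed the largest, 0.48, and Hspa5 had 0.14 and Calr 0.18. Sesn2 with -0.66 and Syvn1 with -0.39 went the other way. Replicate 1 was the lowest library for 13 of the 30 genes, against 32.8% of all tested genes, and the 3 sensors were among the 13, with deviations there of -0.44 for Atf6, -0.21 for Ern1 and -0.58 for Eif2ak3. The summed levels of neutrophil, stromal, and plasma and B cell markers given above were highest in replicate 2. Dcn alone held 5.12 of the 8.22 TPM of stromal markers there. The 7 dendritic cell markers also peaked in replicate 2, with sums of 4.75, 10.8 and 5.86 TPM in replicates 1, 2 and 3. So did 6 mast cell and basophil markers, at 0.05, 0.98 and 0.07 TPM. The sum of 8 T cell markers was lowest there, at 35.0, 25.4 and 46.6 TPM. That of the 12 macrophage markers was also lowest there, at 19907 TPM against 30065 and 24414 TPM in replicates 1 and 3. The part of these transcripts in the result was not tested.

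**Figure D4:**
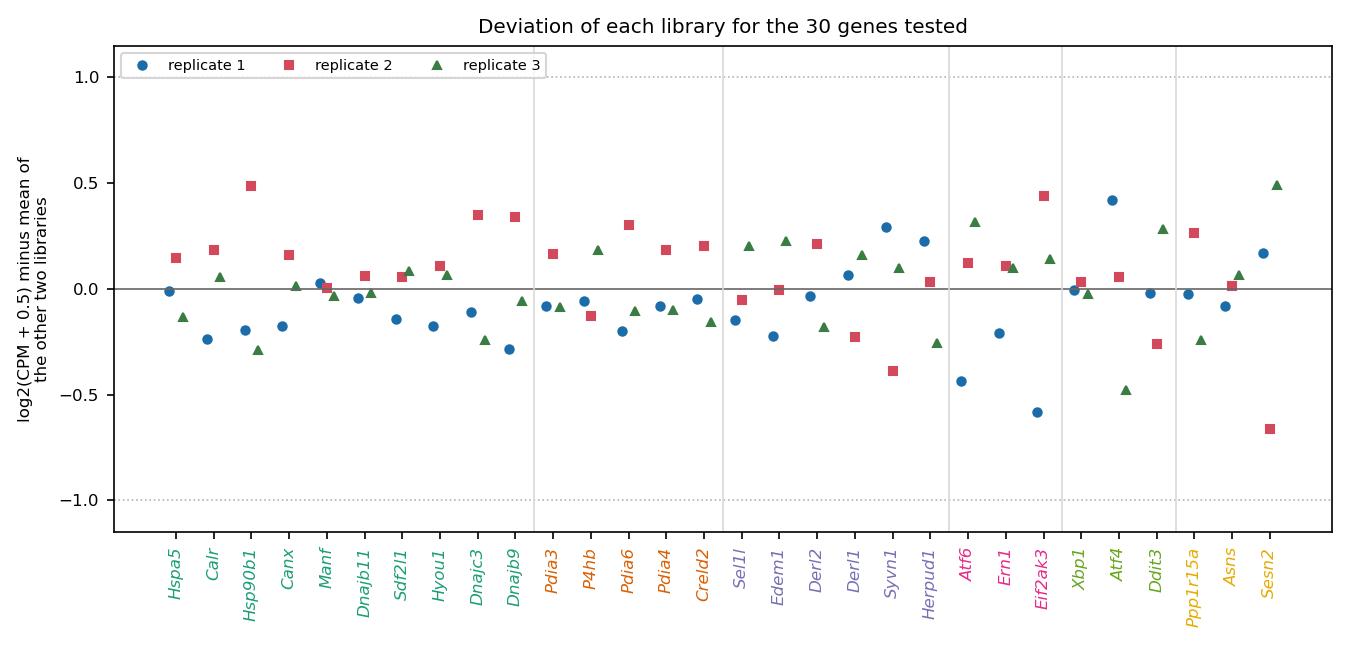
Deviation of each library from the mean of the other two for the 30 tested genes (y axis: log2 of CPM + 0.5; points: libraries; dotted lines: 2-fold). All points lie within 2-fold, replicate 2 is on top for 12 of the 15 chaperones and isomerases, and replicate 1 is lowest for the 3 sensors.

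At the level of transcripts, most of these genes had most of their TPM in coding transcripts. TPM is scaled by length, so a share of TPM can differ much from a share of counts. Of the 28 detected, 22 had at least 90% of their TPM in transcripts annotated as protein coding, which is 78.6%, against 68.3% of the 9388 detected protein-coding genes. A mean share above 10% in retained-intron transcripts was found for 2 of the 28, against 15.1% of those genes, and a mean share above 10% in transcripts annotated for nonsense-mediated decay for 2, against 8.08%. In the second quantification the retained-intron count was 4, with Sel1l and Edem1 added to Manf and Calr, against 19.9%. Manf had the largest retained-intron share, with 41.9%, 36.8% and 42.6% in Manf-205 in replicates 1, 2 and 3. Manf-205 held 176, 200 and 346 of the 1094, 1639 and 2566 counts of Manf. Its annotated span holds other genes on both strands, Rbm15b at 3.53 TPM and Dcaf1 at 4.37 TPM, and since no source used here gives the strand of the libraries, reads of such genes cannot be told apart where they overlap. Calr was next, with 14.7%, 28.1% and 19.1% in Calr-204, highest in replicate 2. Calr-204 held 848, 3210 and 3068 of the 14570, 26805 and 40273 counts of Calr. Its coding transcript Calr-201 held 84.4%, 71.1% and 80.2%, and its own level was 443, 533 and 494 TPM.

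Hspa5 had 15.2%, 13.5% and 12.7% of its TPM in Hspa5-204, annotated for nonsense-mediated decay, with little spread between libraries. Hspa5-204 held only 401, 489 and 634 of the 24877, 40422 and 56624 counts of Hspa5. Derl2 was the least even: the share of Derl2-201, annotated likewise, was 2.27%, 12.5% and 21.4%, and 9.17%, 16.3% and 22.4% in the second quantification, in the same order of libraries. Derl2-201 held 6.91, 65.5 and 171 counts in the first quantification, so its share in replicate 1 rests on few reads. Derl2 also shares 231 bases with Mis12 on the opposite strand. Sel1l-202, a processed transcript, had 48.3, 67.8 and 119 of the 5162, 8174 and 14639 counts of Sel1l. For Sel1l the quantifications differed: this transcript held a mean of 17.2% of the TPM in the first and 0% in the second. Edem1 likewise had a mean of 88.3% of its TPM in coding transcripts in the first and 71.8% in the second.

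**Figure D5:**
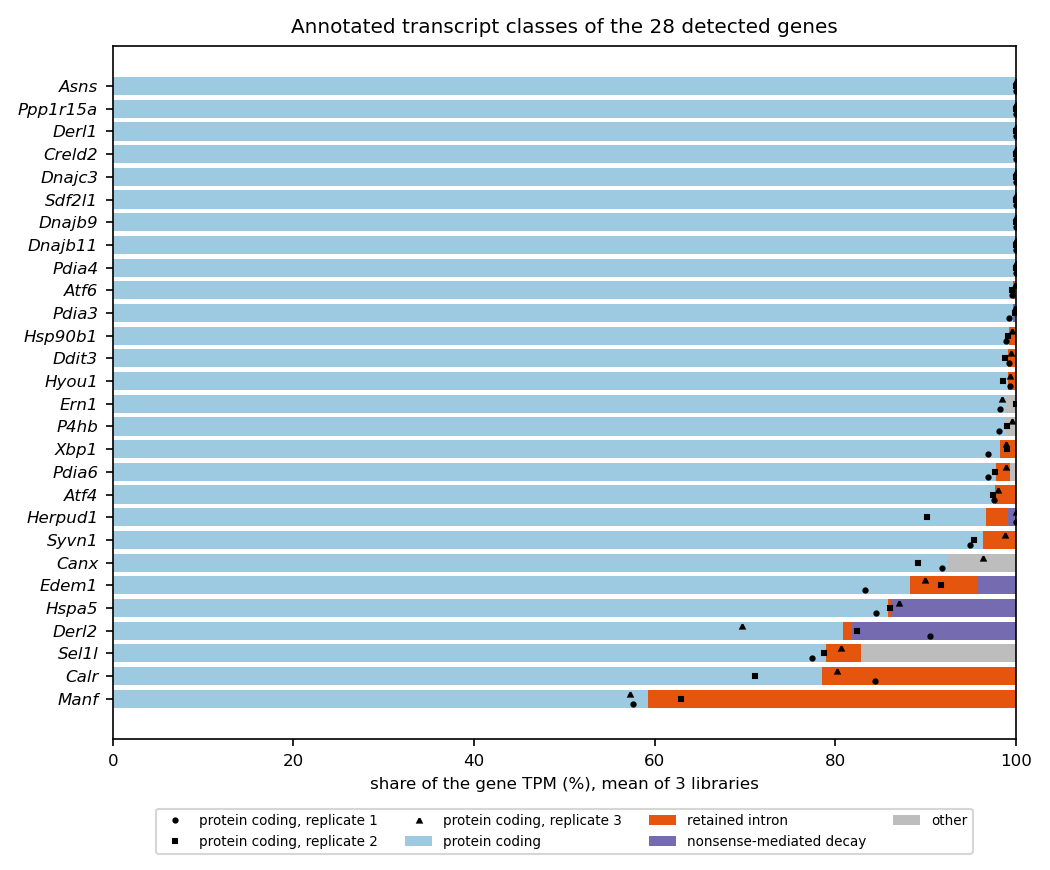
Share of the TPM of each of the 28 detected genes by annotated transcript class (bars: mean of 3 libraries; black points: coding share in each library). Manf, Calr, Sel1l, Derl2, Hspa5 and Edem1 are the 6 genes with less than 90% in coding transcripts.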

How the data were processed

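Polyadenylated RNA was sequenced in 3 libraries of a single group. Per the text files deposited beside the values, reads were quantified on mm10 with GENCODE M21, and replicates were not pooled, with aligner, quantifiers and strand setting not given in the sources used here. The authors deposited, per the file headers, expected counts, TPM and FPKM per gene and per transcript, the percent of the abundance of its gene that each transcript takes, and a second quantification with estimated counts and TPM. Levels use deposited TPM; FPKM served in 1 alternative. Transcript shares were recomputed from TPM.

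Members were matched by symbol and gene ID, taking the ID of highest mean TPM where a symbol had 2. The members and all lists were chosen with earlier results of these data known. The text names all members, the 2 highest and the lowest gene of each further list and genes of the pairs; values per library are given for the highest and lowest member of each role and for the undetected ones, and genes singled out otherwise were chosen after their values were seen. List levels are medians of log2(TPM + 0.1) minus that of detected genes. Expected counts were rounded, filtered and TMM-normalized with edgeR 4.0.16 (R 4.3.3). A chi-square test with Benjamini-Hochberg adjustment over all tested genes was applied, and DESeq2 1.42.0 size factors were an alternative. The test was checked on simulated counts that held counting noise only, while in these libraries it called 77.5% of all tested genes. That check therefore does not cover spread between replicates beyond counting noise. Entries other than mouse genes held 0.082% to 0.117% of counts and stayed out. A count of 0 allows 3 counts, 1.23e-05%, 8.66e-06% and 4.95e-06% of replicates 1, 2 and 3, for counting error only. Motifs were searched as strings in RefSeq windows.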

Additional observations from a re-analysis of the deposited data

How the results depend on the processing

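The level of the 33 genes over the median detected gene, 1.71 (log2), was 1.65 when 1 TPM was added in place of 0.1, 1.63 by the second quantification, 1.96 over detected members only and 1.74 to 1.79 when a replicate was left out; all moved by more than its SD and stayed above 0. The number of detected genes stayed within 1.5 times 28 under every threshold and library set tried. Calls by chi-square numbered 21, 14 and 21 without replicate 1, 2 and 3, against 24. Among all tested genes they were 7851 of 12212, 6090 of 12037 and 6895 of 11726, against 8999 of 11611. Past 2-fold between libraries were 0 under DESeq2 size factors, in the second quantification and in deposited TPM. The shares of all tested genes there were 12.8%, 14.9% and 15.3%. With any replicate left out the count was also 0, against 5.29% to 7.69%. At a 1.5-fold limit it was 3, against 37.4%. Without the filter on low counts 3 were past 2-fold, namely Chac1, Derl3 and Trib3, against 46.2%. The mean share of Xbp1-201, 95.1%, was 92.2% in the second quantification and stayed within its SD with a replicate left out. In an alternative chosen after seeing the data, the second quantification gave 4 genes in place of 2 with over 10% retained-intron transcripts. It gave 2 again for nonsense-mediated decay, and 21 in place of 22 with 90% or more of TPM in coding transcripts. The shares of all detected protein-coding genes there were 19.9%, 8.81% and 60.4%. Of 144 alternative values of the 24 pair ratios, 115 stayed within the SD of the ratio and 6 had the other sign. On counts without length scaling, Derl1 over Derl2 was 1.19, Xbp1 over Atf6 -0.47, Atf4 over Ddit3 1.29 and Ppp1r15a over Ppp1r15b -1.08, the last 2 from means smaller than their SD. Without replicate 3, Xbp1 over Atf4 was -0.07 and Atf4 over Ddit3 0.25, both moving by less than the SD. Of 36 for the role lists, 1 changed sign: the ATF4 and CHOP targets were at 0.33 over detected members only. ERSE matches on the strand of the gene alone numbered 6, against 9. No paired analysis was possible because the libraries form a single group. Counting limits Derl3, Chac1 and Trib3, which had 2, 8 and 57 counts over the 3 libraries.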
